A study of Mus musculus with 9 samples.

Results

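Activating transcription factor 4 (ATF4) drives a set of genes by which cells cope with a shortage of amino acids and with other stresses. The 31 genes described here were Atf4 itself, 6 regulators that act with it or downstream of it, 4 stress effectors and inhibitors of mTORC1 or of translation, 7 genes of amino acid synthesis, 2 mitochondrial one-carbon enzymes, 4 amino acid transporter subunits, 6 cytosolic tRNA ligases, and the lipoprotein receptor gene Vldlr. They were chosen by name from what is known of the pathway, not by a measured value, though with earlier results of these data known, and the counts of all annotated transcripts of each gene were summed. All 31 were found among the 54119 genes of the table, and all 31 were among the 16273 genes that passed a filter on low counts.

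The study measured RNA in primary microglia, the resident immune cells of the brain, after knockdown of Chd8 or Tsc2, a pair of genes related to autism spectrum disorders. Chd8 encodes a chromatin remodeler, and Tsc2 encodes a subunit of the complex that restrains the growth-promoting kinase complex mTORC1. The strain was C57BL/6J in every library, and the groups were control siRNA, Chd8 siRNA, and Tsc2 siRNA, each with 3 libraries that carried the replicate numbers 1, 2, and 3. Every group, the controls included, received an siRNA by lipofection, a small RNA duplex that guides the degradation of an mRNA of matching sequence. The microglia were shaken off mixed glial cultures of embryonic brains, so that other glial cells could be carried along. According to the methods RNA was isolated 3 days after the siRNA was added, whereas the results describe 3 days of lipopolysaccharide stimulation. The methods also list experiments done without lipopolysaccharide, and the RNA sequencing is not among them. The sample descriptions name no such stimulation, so that whether the cells were stimulated is not settled here. Separate cultures came from distinct brains according to the methods, but which libraries shared a culture is not stated, so the p-values measure the spread between these libraries.

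ATF4 is controlled mostly at translation. When amino acids run short, when misfolded proteins build up in the endoplasmic reticulum, or when double-stranded RNA or a lack of heme is sensed, a kinase phosphorylates the translation factor eIF2alpha, most protein synthesis slows, and the ribosomes that still work reach the ATF4 coding sequence. mTORC1 also raises ATF4 protein when nutrients and growth signals are plentiful. ATF4 then pairs with C/EBP proteins or other partners on a short DNA element in front of its target genes. An mRNA measurement therefore reads the targets of ATF4 more directly than the activity of ATF4 itself.

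The core of this C/EBP-ATF response element, TGATGNAA, was looked for on both strands of the RefSeq promoter windows, which run from 250 bases before to 50 bases after an annotated RefSeq start site in GRCm38.p6. Such a start site can lie inside the span given for the gene elsewhere in the text, as that of Nupr1 does, and 4 of the genes, Atf5, Psat1, Slc7a1, and Vldlr, had 2 windows each. No other motif was searched. A window was found for 26 of the 31 genes, and 10 of these 26 (38.5%) held the core, beside 4.51% of the 27025 genes with a window. Eif4ebp1, Slc7a5, Cars, Nars, and Wars had no window in the table. The matches of 9 of these genes are shown because they are the letters through which ATF4 is known to act on several of these genes, each as 30 bases on the gene's own strand, with the core in capitals.
Atf3: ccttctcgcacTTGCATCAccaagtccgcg
Nupr1: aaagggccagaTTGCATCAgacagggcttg
Trib3: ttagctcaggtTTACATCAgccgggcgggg
Chac1: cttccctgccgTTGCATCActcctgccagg
Asns: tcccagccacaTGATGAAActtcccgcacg
Pycr1: tgccctgtgtaTGATGCAAtgcacaaggct
Pck2: agccttcaaagTTACATCAgtatcttacag
Gars: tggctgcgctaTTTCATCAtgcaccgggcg
Vldlr: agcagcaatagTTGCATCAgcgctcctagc

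Read in the same direction, 5 of the 9 genes shown, Atf3, Nupr1, Chac1, Pycr1, and Vldlr, held the same 8 letters, TGATGCAA. In the 30 bases of Nupr1 (chr7:126625562-126625591, minus strand) and in those of Atf3 (chr1:191183425-191183454, minus strand) the core began 110 bases before the RefSeq start site of the window. The core of Asns (within chr6:7693214-7693243, minus strand) began 23 bases before its window's start site, and that of Trib3 (within chr2:152344028-152344057, minus strand) 14 bases after its own. The windows of the other 16 genes, among them Atf4, Ddit3, Psat1, and Slc38a2, held no match, which says only that these letters were not in that window.

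The 31 genes spanned more than 3 orders of magnitude in the control siRNA libraries, from Atf3 at the top to Ddit4 at the bottom. To compare levels between genes, normalized counts scaled to library size (CPM) were divided by the annotated transcript length in kilobases. On this per-length scale the median of the 31 genes was 6.65, beside 2.36 over all genes tested. Atf3, a stress-induced transcription factor, was at 253 ± 45.1 (SD, n = 3), followed by Nupr1, a small stress-induced chromatin protein, at 164 ± 33.6, Slc3a2, the heavy chain shared by several amino acid transporters, at 147 ± 7.30, and Atf4 at 106 ± 10.2. The levels of Nupr1 and Slc3a2 lay within 1 SD of each other, whereas Atf3 and Atf4 were separated by more than their SDs. Wars, the tryptophanyl-tRNA ligase, was at 39.2 ± 15.1 and Nars, the asparaginyl-tRNA ligase, at 32.1 ± 2.48, within 1 SD of Wars. Trib3, a pseudokinase that feeds back on ATF4, Chac1, a glutathione-degrading enzyme, and Ddit4, an inhibitor of mTORC1, were lowest, at 0.418, 0.190, and 0.109. Chac1 had 0 counts in control siRNA replicate 1 and Chd8 siRNA replicate 2, and the smallest count was 7 for Trib3 and 1 for Ddit4. Differences of these 3 genes therefore rested on few reads, whereas Atf4 had at least 2517 counts in every library.

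**Figure D1:**
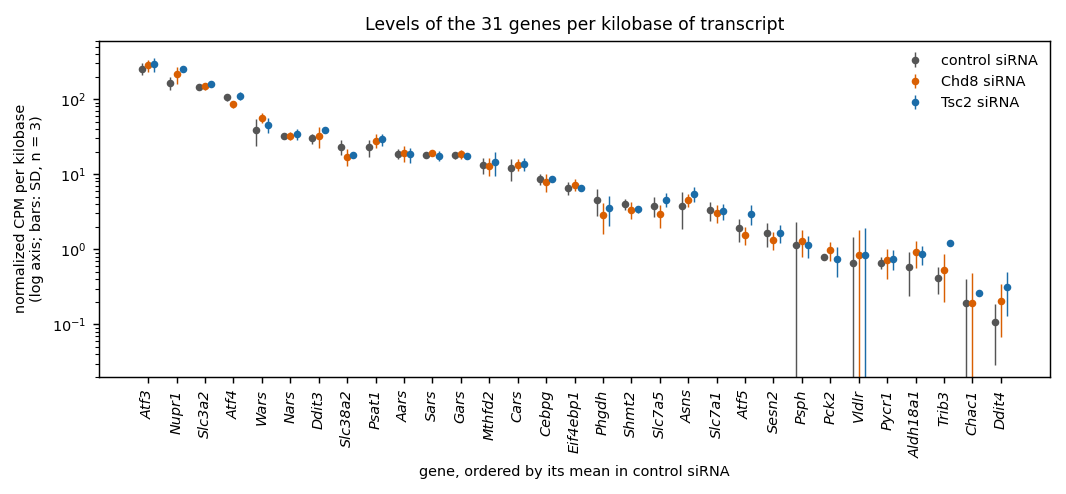
Normalized CPM per kilobase of annotated transcript (log axis) of the 31 genes, ordered by the mean in control siRNA, with points for the mean of 3 libraries and bars for the SD; bars that meet the bottom of the axis extend below it. Atf3 at 253 and Ddit4 at 0.109 mark the ends of the range in control siRNA, and for most genes the 3 groups lie close together.

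Each library held between 16913448 and 33213801 counts, which puts 3 counts at 0.0903 to 0.177 CPM, a floor that covers counting error only. The mean normalized CPM of Chd8 was 103 in control siRNA and 56.5 in Chd8 siRNA, and that of Tsc2 was 39.9 in control siRNA and 30.6 in Tsc2 siRNA. In each case the 3 knockdown libraries lay below the 3 control libraries. With the replicate number in the edgeR fit, Chd8 had a log2 fold change of -0.93 in Chd8 siRNA and was called (adjusted p = 0.00777). Without the replicate number it was not called. The call was lost without control siRNA replicate 2 or 3 or Chd8 siRNA replicate 2 (adjusted p of 0.0586, 0.0795, and 0.0821). Tsc2 fell by 0.39 on the log2 scale with an adjusted p of 0.219 when the replicate number was in the edgeR fit, so that the reduction was not called at an FDR of 0.05. Summed microglia markers were between 2317 and 3153 CPM, although Tmem119 reached at most 1.11 CPM and P2ry12 at most 2.78 CPM. Astrocyte markers summed to between 49.2 and 112 CPM in the 3 libraries numbered 3 and to at most 28.1 CPM in the other 6, with the highest sum in control siRNA replicate 3. Markers of oligodendrocyte lineage cells, neurons, and fibroblasts or endothelial cells each summed to at most 55.0 CPM, and Pdgfra, Olig2, Snap25, and Cldn5 were under 1 CPM in every library. With the siRNA as the only factor, the median log2 fold change of the 9 astrocyte markers was -0.34 in Chd8 siRNA and -0.65 in Tsc2 siRNA, and all 3 fibroblast or endothelial markers that passed the filter were negative in both. The 4 oligodendrocyte lineage markers that passed had medians of 0.12 and -0.32, and the 4 neuron markers -0.31 and -0.65, with all 4 of each list negative in Tsc2 siRNA, or 3 of 4 with the block. Of the 10 microglia markers that passed, 8 were positive in each knockdown, with medians of 0.10 and 0.13. Among them Aif1 passed the FDR alone in Tsc2 siRNA with the block (log2 fold change 0.53, adjusted p = 0.0452), as 0.639% of all genes did. It still passed without Chd8 siRNA replicate 3 or Tsc2 siRNA replicate 1, but not without any other single library (adjusted p from 0.0636 to 0.450). With protein-coding transcripts only it did not pass (adjusted p = 0.146). Col1a1, a collagen gene among the fibroblast markers, was called lower in Chd8 siRNA with the block (log2 fold change -1.31, adjusted p = 0.0218), a call lost without control siRNA replicate 2 or 3 or Chd8 siRNA replicate 2 or 3 (adjusted p from 0.124 to 0.264) or with protein-coding transcripts only (adjusted p = 0.0509). The part of these markers in the results on the 31 genes was not tested.

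To ask whether knockdown shifted the ATF4 genes, the groups were compared with edgeR's quasi-likelihood test over all 16273 genes, and calls required an FDR of 0.05 together with a 1.5-fold change. With the siRNA as the only factor, 0 of the 31 genes were called in Chd8 siRNA- or Tsc2 siRNA-treated microglia, and neither was any other gene (0.0% in each comparison). At an unadjusted p under 0.05 this fit named 0 of the 31 genes for Chd8 siRNA, beside 3.82% of all genes, and 2 for Tsc2 siRNA, Trib3 and Nupr1, beside 2.61%. DESeq2 without the block called 0 of the 31 in each comparison as well. The study itself reported genes called in both knockdowns with DESeq2 at the same FDR and fold change, unlike the edgeR fit without the block. The reason for this difference was not tested. Libraries with the same replicate number deviated together from their group means, with correlations across genes between 0.24 and 0.52 in all 9 pairs, so the numbers were treated as pairing the libraries. With the replicate number in the fit as a block, Wars was called higher in Chd8 siRNA-treated microglia, where 0.246% of all genes were called higher, and Nupr1 was called higher in Tsc2 siRNA-treated microglia, where 0.19% were. None of the 31 was called lower in either comparison, against 0.289% and 0.197% of all genes. At an unadjusted p under 0.05 the blocked fit named 3 higher and 2 lower for Chd8 siRNA, beside 12.8% of all genes in both directions together, and 7 higher and 1 lower for Tsc2 siRNA, beside 10.7%. The 3 control libraries served in both comparisons, whose values are therefore given side by side and are not independent of each other.

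The regulators lay mostly above control in Tsc2 siRNA-treated microglia. All 7 regulators had a positive log2 fold change, with a median of 0.37, and 6 of them, all but Cebpg, were higher than control at each of the 3 replicate numbers, whereas 15.5% of all genes were. In Chd8 siRNA-treated microglia 4 of the 7 were positive and the median was 0.11. Over all genes tested, the medians were -0.02 for both knockdowns. Counts of bulk cultures do not tell apart more RNA per cell from a change in the share of cells that express a gene, here and in the results that follow.

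Nupr1 was the only one of the 31 genes called for Tsc2 siRNA. It lies on chromosome 7 (chr7:126623249-126630861, minus strand, GRCm38) and overlaps no other annotated gene. In control siRNA libraries 1, 2, and 3 its normalized CPM was 170, 127, and 115, and in the Tsc2 siRNA libraries it was 217, 196, and 225. All 3 Tsc2 siRNA libraries were above all 3 control libraries, a separation seen in 3.87% of all genes in this direction. The log2 fold change was 0.66 ± 0.12 (SE) with the replicate block, a fold change of 1.58 with an adjusted p of 0.0158, and 0.63 ± 0.20 without it, with an unadjusted p of 0.0117. The exact permutation test over these 6 libraries gave p = 0.1, the smallest value that 3 libraries against 3 allow. The blocked call was lost when control siRNA replicate 2 or 3 or Tsc2 siRNA replicate 2 or 3 was left out, with adjusted p-values of 0.108, 0.184, 0.0942, and 0.0979, and when only protein-coding transcripts were counted, with an adjusted p of 0.0706. In the Chd8 siRNA libraries Nupr1 was at 227, 174, and 134 CPM. These values were higher than control at each replicate number but overlapped the control libraries, with a blocked log2 fold change of 0.37 ± 0.12 and an adjusted p of 0.157. Compared directly, Tsc2 siRNA and Chd8 siRNA differed in Nupr1 by a log2 fold change of 0.29 ± 0.12 with the block, which did not pass the adjusted threshold (adjusted p = 0.366). This difference ran from 0.09 to 0.45 with 1 library left out.

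Trib3 and Ddit3 were the other 2 genes whose Tsc2 siRNA libraries lay above every control library. Trib3 was at 0.377, 0.431, and 0.472 CPM in control siRNA and at 1.88, 1.35, and 1.05 CPM in Tsc2 siRNA, a fitted fold change of 3.32 without the block (log2 1.73 ± 0.61, unadjusted p = 0.0172, adjusted p = 0.9996). Chd8 siRNA libraries had 0.703, 1.28, and 0.288 CPM of Trib3 and spanned the control values. The counts behind these values ran from 7 to 44 per library. Ddit3, which encodes the stress transcription factor CHOP, was at 27.1, 25.3, and 19.2 CPM in control siRNA and at 31.7, 30.7, and 30.3 CPM in Tsc2 siRNA. Its Tsc2 siRNA libraries were the most even of the 3 groups, and the log2 fold change with the block was 0.41 ± 0.16 with an adjusted p of 0.370. With 1 library left out, that value ran from 0.16 to 0.55. In Chd8 siRNA Ddit3 was at 33.3, 28.8, and 15.3 CPM, with libraries 1 and 2 above every control library and library 3 below every one. Ddit3 overlaps Gm4189 and Mars, another tRNA ligase gene, on the opposite strand, and how strand was handled in the counting is not stated, so reads could have been split between them.

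Atf4 and Atf3 were called in neither comparison. Atf4 was at 158, 181, and 174 CPM in control siRNA, at 150, 161, and 133 CPM in Chd8 siRNA, and at 160, 207, and 179 CPM in Tsc2 siRNA. Each Chd8 siRNA library was below the control library of its number and each Tsc2 siRNA library above it, although the groups overlapped. The blocked log2 fold changes were -0.21 ± 0.08 (adjusted p = 0.280) and 0.08 ± 0.08 (adjusted p = 0.823). Atf3 was at 379, 533, and 442 CPM in control siRNA, at 441, 605, and 445 CPM in Chd8 siRNA, and at 440, 613, and 475 CPM in Tsc2 siRNA. The number 2 library was the highest in each group. Atf3 was higher than control at 3 of 3 numbers in both knockdowns, with overlapping groups and blocked log2 fold changes of 0.14 ± 0.07 (adjusted p = 0.403) and 0.17 ± 0.07 (adjusted p = 0.349).

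Atf5, a transcription factor related to ATF4, was called in no comparison. It was at 2.41, 3.14, and 4.72 CPM in control siRNA, at 2.08, 2.74, and 3.66 CPM in Chd8 siRNA, and at 4.52, 4.36, and 7.29 CPM in Tsc2 siRNA. All 3 Tsc2 siRNA libraries were above all 3 Chd8 siRNA libraries, with a log2 fold change of 0.94 ± 0.36 (unadjusted p = 0.0259), and with the block the adjusted p was 0.145. Against control, Tsc2 siRNA was higher at 3 of 3 numbers, although the groups overlapped, with a blocked log2 fold change of 0.67 ± 0.25 (adjusted p = 0.341). Atf5 overlaps Nup62 and Il4i1 on the opposite strand. The direct comparison of Tsc2 siRNA with Chd8 siRNA called 0 of the 31 genes in both fits, where 0.0% and 0.221% of all genes were called. At an unadjusted p under 0.05 without the block it named 2 of the 31, Atf5 and Atf4, beside 3.1% of all genes, and the Atf4 log2 fold change was 0.30 ± 0.13. With the block 4 were higher and 1 was lower in Tsc2 siRNA at that threshold, beside 10.7%. Atf5 and Slc7a5 were the 2 genes whose groups did not overlap there, both higher in Tsc2 siRNA, beside 8.44% of all genes, 4.42% higher and 4.02% lower.

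**Figure D2:**
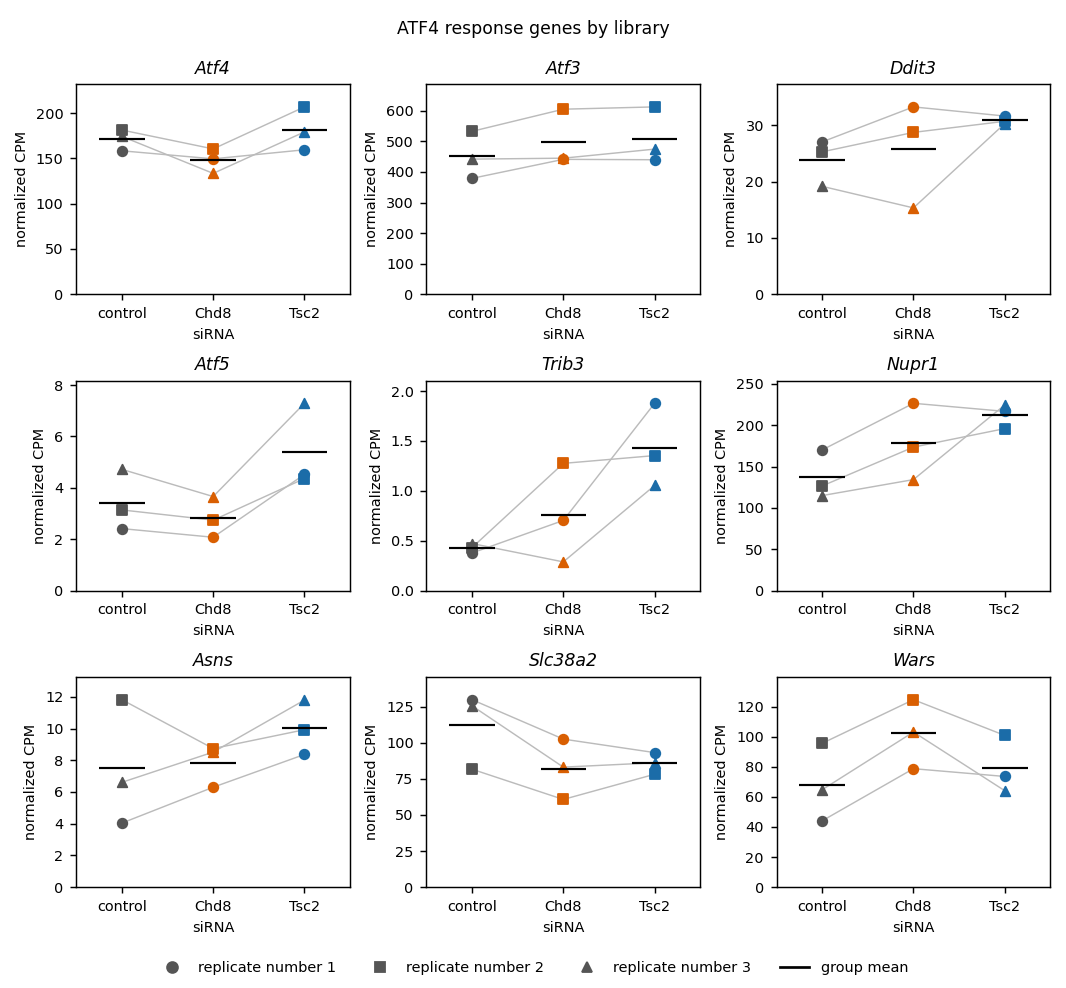
Normalized CPM of 9 genes in each of the 9 libraries, by siRNA, with circles, squares, and triangles for the replicate numbers 1, 2, and 3, gray lines joining libraries of the same number, and black bars for the mean of 3 libraries; each axis starts at 0. Nupr1 and Trib3 are above control in every Tsc2 siRNA library, Slc38a2 lies below control at each replicate number in both knockdowns, and Wars lies above control at each number in Chd8 siRNA.

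The stress effectors and inhibitors gave no call in either fit. Chac1 was at 0, 0.246, and 0.686 CPM in control siRNA, at 0.0670, 0, and 0.864 CPM in Chd8 siRNA, and at 0.427, 0.401, and 0.439 CPM in Tsc2 siRNA. The Tsc2 siRNA libraries lay within the range of the controls, and no direction can be read from counts this low. Ddit4 stayed between 0.0616 and 0.908 CPM. Sesn2, a sensor that restrains mTORC1 when amino acids are short, ranged from 3.38 to 7.42 CPM over the 9 libraries, and Eif4ebp1, which blocks cap-dependent translation, ranged from 10.7 to 16.7 CPM, both with overlapping groups.

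Among the genes of amino acid synthesis, 6 of 7 had a positive log2 fold change in each knockdown and Phgdh, the first enzyme of serine synthesis, was the negative one in both. None was called. Psat1, the next enzyme of that route, was at 59.4, 58.9, and 40.8 CPM in control siRNA, at 65.3, 71.4, and 54.2 CPM in Chd8 siRNA, and at 70.2, 66.9, and 49.98 CPM in Tsc2 siRNA. It was higher than control at each replicate number in both knockdowns, with blocked log2 fold changes of 0.27 ± 0.09 (adjusted p = 0.194) and 0.24 ± 0.09 (adjusted p = 0.350). Asns, which makes asparagine and is the textbook target of ATF4, was at 4.03, 11.8, and 6.61 CPM in control siRNA, at 6.30, 8.74, and 8.51 CPM in Chd8 siRNA, and at 8.37, 9.93, and 11.8 CPM in Tsc2 siRNA. Control siRNA replicate 2 was as high as the highest Tsc2 siRNA library. The blocked log2 fold change of Asns for Tsc2 siRNA was 0.52 ± 0.24, with an adjusted p of 0.451, and ran from 0.30 to 0.90 with 1 library left out.

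Phgdh was highest in the library numbered 3 of each group, at 7.38, 4.69, and 5.97 CPM, and these were also the libraries with the highest astrocyte marker sums. Astrocytes are known to express Phgdh and Psat1. Psat1 was lowest in the libraries numbered 3. Vldlr, a lipoprotein receptor that astrocytes also express, was at 0.867, 3.02, and 1.201 CPM in control siRNA, at 0.502, 1.53, and 5.92 CPM in Chd8 siRNA, and at 0.726, 1.203, and 2.78 CPM in Tsc2 siRNA, highest in the library numbered 3 of both knockdowns but not of the controls. The part of astrocyte RNA in these values was not tested. Psph, Aldh18a1, Pycr1, and Pck2, which act in the synthesis of serine and proline and in mitochondrial phosphoenolpyruvate formation, had mean levels between 1.45 and 2.77 CPM in the 3 groups, with overlapping groups throughout. Shmt2 and Mthfd2, which feed one-carbon units from serine in mitochondria, gave no call in either knockdown, with blocked log2 fold changes between -0.22 and 0.15.

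Slc38a2 was lower than control at each replicate number in both knockdowns, though it was called in neither. It encodes SNAT2, a sodium-coupled transporter of small neutral amino acids. Its normalized CPM was 130, 81.8, and 126 in control siRNA, 103, 60.8, and 83.2 after Chd8 knockdown, and 93.3, 78.3, and 86.3 after Tsc2 knockdown. The number 2 control library was the lowest of its group and lay below at least 1 library of each knockdown, so the groups overlapped. With the block, Slc38a2 had a log2 fold change of -0.45 ± 0.10 in Chd8 siRNA, at an adjusted p of 0.050 and short of the 1.5-fold change (1.04% of all genes passed the FDR alone, as Wars and Slc38a2 did), and -0.36 ± 0.10 in Tsc2 siRNA, at an adjusted p of 0.159. Slc38a2 no longer passed the FDR in Chd8 siRNA when any 1 of the 3 control or the 3 Chd8 siRNA libraries was left out (adjusted p from 0.0621 to 0.367), nor with RLE size factors (0.0549) or protein-coding transcripts only (0.0930). Without the block the unadjusted p-values were 0.0671 and 0.107. Lower values at each of the 3 numbers were found in 6 of the 31 genes for Chd8 siRNA and 4 for Tsc2 siRNA, beside 18.3% and 16.3% of all genes.

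The other transporter genes were not called. Slc7a5, the light chain that exchanges large neutral amino acids, was at 11.9, 11.1, and 9.27 CPM in control siRNA, at 6.77, 8.74, and 10.4 CPM in Chd8 siRNA, and at 10.5, 13.7, and 11.3 CPM in Tsc2 siRNA. All Tsc2 siRNA libraries were above all Chd8 siRNA libraries, with a log2 fold change of 0.46 ± 0.22 and an unadjusted p of 0.0614, and both groups overlapped control. Its partner Slc3a2 stayed between 235 and 315 CPM. Slc7a1, which takes up arginine and lysine, was at 13.0, 26.5, and 21.8 CPM in control siRNA, at 13.0, 21.8, and 16.1 CPM in Chd8 siRNA, and at 12.6, 21.7, and 21.5 CPM in Tsc2 siRNA, lowest in the library numbered 1 of every group.

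Wars, which charges tRNA with tryptophan, was the only one of the 31 genes called for Chd8 siRNA. It lies on chromosome 12 (chr12:108860030-108894174, minus strand, GRCm38). Besides its place among ATF4 targets, Wars is known to be induced by interferon gamma. Its normalized CPM was 44.1, 95.7, and 64.8 in control siRNA and 78.9, 125, and 103 in Chd8 siRNA. The number 2 control library exceeded the number 1 Chd8 siRNA library, so the groups overlapped, but Chd8 siRNA was higher at 3 of 3 replicate numbers. The log2 fold change was 0.62 ± 0.13 with the block, a fold change of 1.54 with an adjusted p of 0.0279, and 0.59 ± 0.29 without it, with an unadjusted p of 0.0681. This call held when Tsc2 siRNA replicate 1 or 3 was left out and was lost without any other single library: the adjusted p rose to 0.0978, 0.0586, and 0.163 without control siRNA replicates 1, 2, and 3, to 0.0763, 0.0970, and 0.190 without the Chd8 siRNA replicates, and to 0.0577 without Tsc2 siRNA replicate 2. It was lost as well with protein-coding transcripts only (adjusted p = 0.0930). Wars overlaps Wdr25 and 5033424D13Rik on the opposite strand and Gm22079 on its own.

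In Tsc2 siRNA Wars was at 73.7, 101, and 64.2 CPM, with a blocked log2 fold change of 0.27 ± 0.13 and an adjusted p of 0.471. The direct difference between Tsc2 siRNA and Chd8 siRNA was -0.36 ± 0.12 with the block and did not pass (adjusted p = 0.286). The other 5 ligases, Aars, Cars, Gars, Nars, and Sars, had blocked log2 fold changes between 0.03 and 0.12 for Chd8 siRNA and between -0.03 and 0.18 for Tsc2 siRNA. Of 14 further cytosolic tRNA ligase genes that are not among the 31, 0 were called in either comparison in either fit, and their median log2 fold changes were -0.09 and -0.01.

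The replicate number separated more of these genes than the siRNA did, as it did over all genes, where the blocked siRNA comparisons called 0.535% for Chd8 and 0.387% for Tsc2. In the fit with both factors, 4 of the 31 genes were called between replicate numbers, beside 17.3% of all genes, 9 passed the FDR alone, beside 25.0%, and 17 had an unadjusted p under 0.05, beside 35.3%. The counts at the FDR were close to the shares of all genes, and no count was tested against its share. On average Wars, Slc7a1, and Mthfd2 were highest in the libraries numbered 2 and Vldlr in those numbered 3. Atf3, with the lowest p, averaged 420, 584, and 454 CPM over the libraries numbered 1, 2, and 3 (adjusted p = 0.000145), a largest fold of 1.39, under the fold required. Mthfd2 was at 23.8, 32.0, and 19.5 CPM in control siRNA, at 17.8, 35.0, and 23.4 CPM in Chd8 siRNA, and at 26.6, 39.7, and 19.0 CPM in Tsc2 siRNA, so that the library numbered 2 was the highest of every group. The means of Wars were 65.5, 107, and 77.4 CPM (adjusted p = 0.00107), and those of Slc38a2 were 109, 73.6, and 98.4 CPM (adjusted p = 0.00248), the reverse order. Without control siRNA replicate 1 the count of 4 fell to 2, and Wars then differed by a log2 of 0.57 and was no longer called.

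**Figure D3:**
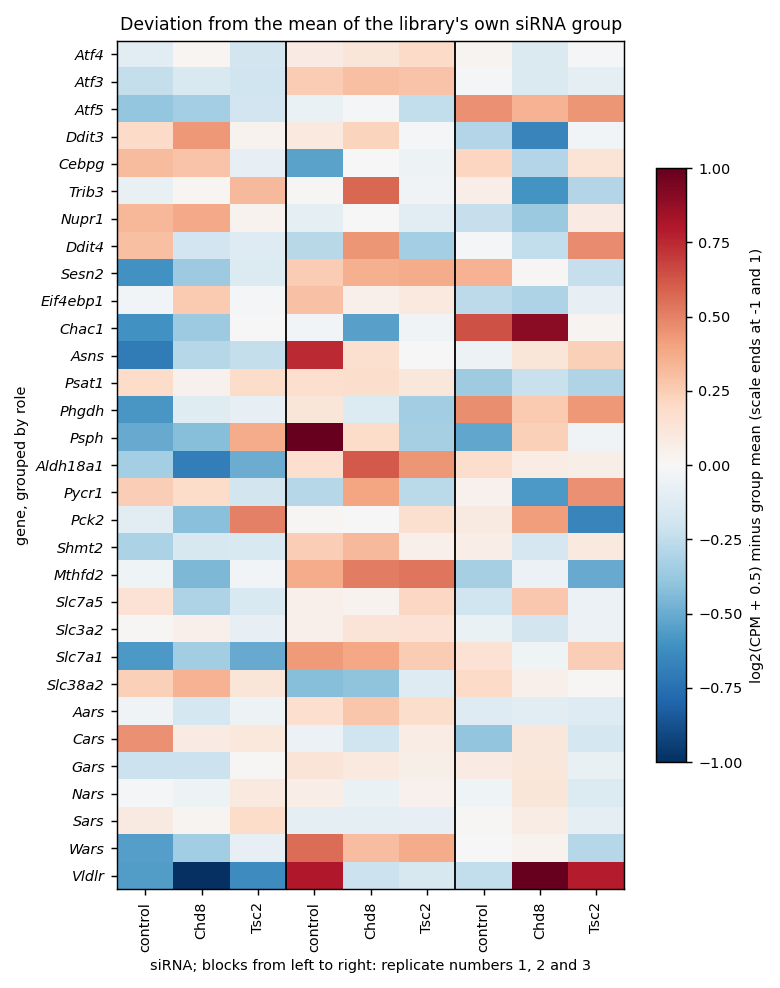
Deviation of log2(CPM + 0.5) from the mean of the library's own siRNA group (color, from -1 in blue to 1 in red) for the 31 genes in the 9 libraries, ordered by replicate number. Atf3, Wars, Slc7a1, and Mthfd2 are above their group means in all libraries numbered 2, and Slc38a2 is below them there.

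Over the 31 genes, Chd8 siRNA gave a median log2 fold change of 0.07 with 22 positive values, and Tsc2 siRNA gave 0.14 with 23, beside a median of -0.02 over all genes in both comparisons. The medians of single libraries varied about their group with an SD of 0.11. Higher values at each of the 3 numbers were found in 6 genes for Chd8 siRNA and 11 for Tsc2 siRNA, beside 17.7% and 15.5% of all genes, and the groups did not overlap in 0 and 3 of the 31, beside 9.09% and 8.11%. All 3 were higher in Tsc2 siRNA. Of all genes, 4.17% were higher and 4.92% lower without overlap for Chd8 siRNA, and 4.23% were lower without overlap for Tsc2 siRNA.

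Other genes of the same pathway were counted from lists outside the 31. The list of 4 eIF2alpha kinases, 2 phosphatase subunits, and Eif2s1, which encodes eIF2alpha, gave 0 calls in either fit, although Ppp1r15b, which recruits a phosphatase to eIF2alpha, was higher with the block in Chd8 siRNA at an adjusted p of 0.0286 and a log2 fold change of 0.35, below the fold required. It no longer passed the FDR without control siRNA replicate 2 or 3, Chd8 siRNA replicate 2 or 3, or Tsc2 siRNA replicate 2 (adjusted p from 0.0612 to 0.291). Nor did Ppp1r15b pass with protein-coding transcripts only (adjusted p = 0.0509). Among 14 further ATF4 targets that passed the filter, 0 were called without the block, whereas with it 1 was called higher and 2 lower in Chd8 siRNA, beside 0.246% and 0.289% of all genes, and 1 lower in Tsc2 siRNA, beside 0.197%. The lower gene in both was Slc7a11, the cystine and glutamate exchanger. It was at 182, 252, and 511 CPM in control siRNA, at 107, 147, and 253 CPM in Chd8 siRNA, and at 91.9, 185, and 275 CPM in Tsc2 siRNA, lower than control at each number in both although the groups overlapped. Its blocked log2 fold changes were -0.86 ± 0.10 (adjusted p = 0.00173) and -0.77 ± 0.10 (adjusted p = 0.00306). Left out in turn, no single library ended the call for Chd8 siRNA, whereas without control siRNA replicate 3 the call for Tsc2 siRNA was lost (adjusted p = 0.0559). Over the same libraries the astrocyte markers summed to 14.7, 25.4, and 112 CPM in control siRNA, to 13.6, 24.9, and 49.2 CPM in Chd8 siRNA, and to 12.1, 28.1, and 52.5 CPM in Tsc2 siRNA, and like Slc7a11 they were highest in the library numbered 3 of each group. Their part in the Slc7a11 difference was not tested. In Chd8 siRNA, Gdf15, a secreted stress signal, was lower with a blocked log2 fold change of -0.87 ± 0.16 (adjusted p = 0.0163), and Jdp2, a repressor that binds AP-1 sites, was higher at 0.64 ± 0.09 (adjusted p = 0.00435). The call of Gdf15 was lost without control siRNA replicate 3 (adjusted p = 0.213), Chd8 siRNA replicate 2 (0.131), or Chd8 siRNA replicate 3 (0.132), and that of Jdp2 without control siRNA replicate 2, where its log2 fold change of 0.54 was short of the fold required. The IRE1 and ATF6 branch genes, which serve the other arms of the unfolded protein response, gave 0 calls among 13 genes in either fit.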

How the data were processed

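RNA was sequenced from 9 libraries of primary mouse microglia, 3 each with control, Chd8, and Tsc2 siRNA. Library preparation is given as a stranded SMARTER kit in the labels and as an Illumina total RNA kit in the methods, and how strand was handled is not given in the sources used here. The authors deposited estimated counts per transcript, made with Salmon 0.14.1 on mm10 per the labels; the annotation release is not given in the sources used here. Of 140948 transcripts, 139852 matched GENCODE mouse release 21 and were summed to genes and rounded, and the other 1096 (0.27% of counts) were left out. Totals of 16913448 to 33213801 counts per library limit the precision of low genes.

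Groups follow the sample titles. Genes passing filterByExpr were scaled with TMM and tested over all 9 libraries with edgeR 4.0.16 (quasi-likelihood, Benjamini-Hochberg, R 4.3.3), without and with the replicate number as a block. Adjusted p-values in the text are from these fits unless DESeq2 1.42.0 is named. Calls needed an FDR of 0.05 and a fold of 1.5. Exact two-sided permutation tests used log2(CPM + 0.5). Same-numbered libraries deviated together (r from 0.24 to 0.52), which is why the blocked values are printed. The correlations for other numbers (-0.38 to 0.04) add no support, because deviations from a group mean sum to 0 within the group. Values in every library are given for Atf4, Atf3, Ddit3, Asns, Trib3, and Chac1, for each member called, with an unadjusted p under 0.05, or with groups that do not overlap, in a comparison of siRNA groups in either fit, and for the 5 members with the lowest p between replicate numbers. Vldlr, the number 3 values of Phgdh, and the genes outside the 31 were chosen after their values were seen. The members and lists were chosen with earlier results of these data known. Scripts were tested on simulated data with 200 of 16273 genes raised or lowered by 1 on the log2 scale in Chd8 siRNA. Without a simulated replicate effect, 0 of the 200 were called in either fit. With that effect the fit without the block called 16 of them and no other gene. The blocked fit called 100 of them, with 6 false calls. A count of 0 calls therefore does not show that changes of this size were absent. Tables and figures used Python 3.11.15, pandas 2.3.3, and matplotlib 3.10.9. Alternatives were RLE size factors, DESeq2, no low-count filter, no fold threshold, protein-coding transcripts only, only the compared groups, and each library left out. The sequences of 2 promoter matches are not reported here.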

Additional observations from a re-analysis of the deposited data

How the results depend on the processing

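The fit without the block called 0 of all genes tested with every library in, so a count of 0 there cannot show stability. Without the block, the number of the 31 genes called for Chd8 or Tsc2 siRNA stayed at 0 when any library was left out (0 to 0). For Chd8 siRNA it was 1 with the replicate block, with the block and RLE size factors, and with the block in DESeq2's Wald test, and 2 with the block and no fold threshold, where Slc38a2 joined Wars. For Tsc2 siRNA it was 1 with the block, with the block and no fold threshold, RLE size factors, or DESeq2's Wald test, and with the block without the 3 libraries numbered 1. Leaving out a library under the block gave 0 to 1 in both. Over all genes, the blocked fit called 87, 63, and 36 genes for Chd8, Tsc2, and Tsc2 against Chd8 siRNA, and the unblocked fit 0 each. The block changed no call of the other members. Between replicate numbers the count of 4 became 9 without the fold threshold and ran from 2 to 6 with a library left out. The likelihood-ratio test of DESeq2 and the fits without the libraries numbered 1 were chosen after seeing the data.

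Some uncalled log2 fold changes turned sign, and the cause was not tested. For Chd8 siRNA, Chac1 was -0.17 with the block (also without the fold threshold), -0.16 with the block and RLE, -0.26 with the block in DESeq2, -0.00024 and, with the block, -0.21 with protein-coding transcripts, and -0.078 and -0.49 without the libraries numbered 1. Asns was -0.0056 with protein-coding transcripts and -0.091 and, with the block, -0.062 without the libraries numbered 1, where Ddit3 was -0.017 and -0.053. Without those libraries Chac1 was -0.17 for Tsc2 siRNA and -0.088 between knockdowns. With each library left out, values for Chd8 siRNA ran from -2.80 to 1.45 for Chac1, -0.23 to 0.56 for Asns, -0.12 to 0.39 for Ddit3, and -0.025 to 0.28 for Atf3. Under the block they ran from -1.82 to 0.47 for Chac1, -0.072 to 0.55 for Asns, and -0.098 to 0.32 for Ddit3. The negative ones between these limits were -0.82 without control siRNA replicate 1, -0.086 without Chd8 siRNA replicate 1, and -0.24 and -0.32 without Tsc2 siRNA replicates 2 and 3 for Chac1, and -0.0039 without Chd8 siRNA replicate 2 for Ddit3. For Tsc2 siRNA, values ran from -0.014 to 0.17 for Atf4 and -0.15 to 1.87 for Chac1, and between knockdowns from -0.12 to 0.20 (block -0.0070 to 0.07) for Atf3, -0.0025 to 0.49 for Ddit3, and -0.12 to 3.25 for Chac1. The median over the 31 genes ran from -0.01 to 0.14 for Chd8 siRNA (block 0.04 to 0.10), from 0.03 to 0.18 for Tsc2 siRNA (block 0.10 to 0.17), and from 0.06 to 0.16 between knockdowns (block 0.08 to 0.16). Low counts limit Chac1, Ddit4, and Trib3.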
